A study of Homo sapiens with 44 samples.

Results

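The STEAP metalloreductases, STEAP1, STEAP2, STEAP3 and STEAP4, were followed in VCaP xenograft tumors treated with enzalutamide, ARN-509 or vehicle. The members were chosen by family name, and these 4 genes of the 23368 in the deposited table make up the family as described here. VCaP is an established human prostate cancer cell line, grown here in athymic nude mice, which lack T cells. All mice in all arms had been castrated, and treatment began once PSA in serum was back at its pre-castration level, so every tumor, vehicle tumors included, was castration-resistant. Enzalutamide and ARN-509 (apalutamide) are antiandrogens, drugs that block androgen signalling, and both were dosed by gavage, 20 mg/kg/day over 4 weeks. The arms used held 13 enzalutamide, 15 ARN-509 and 15 vehicle tumors, and a further enzalutamide library, enzalutamide 4, was left out. The number of libraries matches the number of mice per arm, so each library was taken as the tumor of 1 mouse.

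STEAP proteins sit in membranes, where they pass electrons from cytosolic NADPH through FAD and heme to iron and copper ions, which are taken up by cells in reduced form. STEAP1 lacks the NADPH-binding domain of the other members and is thought to act together with them. STEAP1 and STEAP2 are known as surface proteins of prostate epithelium and prostate cancer, and STEAP1 is a target of antibody and cell therapies. STEAP3 is the endosomal ferrireductase that serves transferrin iron uptake in red cell precursors, as shown in mice. STEAP4, also known as STAMP2, is a metalloreductase known as androgen-responsive in prostate cancer cells.

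The promoter of STEAP4 is shown beside those of STEAP1 and STEAP2 because STEAP4 fell under both drugs while STEAP1 under both, and STEAP2 under ARN-509, rose, and all 3 genes lie on chromosome 7. Each window of 300 bases spans a RefSeq start on GRCh38.p14, most of it upstream, and is written 5′ to 3′ on the gene's strand, and capitals mark a GC box (GGGCGG or its reverse complement).
STEAP4, chr7:88306845-88307144, minus strand: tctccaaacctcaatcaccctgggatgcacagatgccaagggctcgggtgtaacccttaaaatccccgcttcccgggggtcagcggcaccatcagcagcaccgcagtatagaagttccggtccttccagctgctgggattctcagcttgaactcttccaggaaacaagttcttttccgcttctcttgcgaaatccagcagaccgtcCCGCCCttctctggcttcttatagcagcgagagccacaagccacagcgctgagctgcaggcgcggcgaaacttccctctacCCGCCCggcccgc
STEAP1, chr7:90154219-90154518, plus strand: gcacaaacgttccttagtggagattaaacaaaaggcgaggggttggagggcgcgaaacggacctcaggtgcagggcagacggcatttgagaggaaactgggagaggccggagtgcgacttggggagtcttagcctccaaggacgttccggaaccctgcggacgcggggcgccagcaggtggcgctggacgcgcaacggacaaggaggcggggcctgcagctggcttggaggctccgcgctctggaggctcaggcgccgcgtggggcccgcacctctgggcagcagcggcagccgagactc
STEAP2, chr7:90211490-90211789, plus strand: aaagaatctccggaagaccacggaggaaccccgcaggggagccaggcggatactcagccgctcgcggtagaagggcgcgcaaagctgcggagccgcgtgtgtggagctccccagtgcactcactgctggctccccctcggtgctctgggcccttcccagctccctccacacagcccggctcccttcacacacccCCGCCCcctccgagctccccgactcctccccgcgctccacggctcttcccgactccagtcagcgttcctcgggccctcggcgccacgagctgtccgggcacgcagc
The STEAP4 window had a GC content of 58.7%, equal to the median of 35116 promoters, and 18 CpG dinucleotides. The STEAP1 and STEAP2 windows were richer, at 66.7% with 27 CpG and 70.3% with 28 CpG. GC boxes occurred 2 times in STEAP4, once in STEAP2 and not in STEAP1, while 45.0% of all promoter windows held 1 or more. On either strand, neither the steroid response half-site AGAACA (14.8% of windows) nor the forkhead motif TGTTTAC (3.42%) nor the TATA box TATAAA (11.5%) occurred in the 3 windows printed. STEAP2 has another RefSeq start, whose window held 1 forkhead motif and 1 TATA box at a GC content of 33.7%. STEAP3 lies on chromosome 2, and its window, at 78.7% GC, held none of those 3 motifs either.

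Library totals spanned 4.72 to 16.9 M counts (M, the SI prefix mega) in the enzalutamide arm, 3.38 to 30.1 M in the ARN-509 arm and 4.19 to 25.8 M in the vehicle arm. Enzalutamide 4, the library left out, held only 80142 counts. Vehicle 8 and vehicle 10 stood apart from their arm, with a Pearson r of 0.888 and 0.916 between their log2 expression and the arm mean, against at least 0.955 for all others used. All 8 markers of prostate luminal epithelium passed the filter on low counts. Of markers of other cells, 2 of 8 fibroblast, 1 of 6 leukocyte, 1 of 4 adipocyte, 0 of 5 endothelial and 0 of 4 erythroid genes passed it. The summed fibroblast markers spanned 4.76 to 12.6 CPM (counts per M counts of the scaled library total) under enzalutamide, 4.93 to 17.9 under ARN-509 and 6.59 to 24.8 under vehicle. The summed endothelial markers spanned 0.405 to 2.73 CPM, 0.210 to 1.67 CPM and 1.995 to 6.69 CPM in the same order of arms. Single markers did not move alike. VWF had medians of 3.15 CPM under vehicle, 0.354 under enzalutamide and 0.185 under ARN-509. PECAM1 was also lower (0.969 against 0.486 and 0.612). CDH5 and KDR had medians of 0 in every arm, and TEK was not lower. Median FBN1 was lower under both drugs (5.04 against 2.44 and 2.41), and median COL1A1 was not (3.26 against 3.69 and 4.83). How mouse reads of the host were handled was not stated. The part of these marker shifts in the results below was not tested, and in bulk tumors fewer cells of a type cannot be told apart from less RNA per cell.

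All 4 members passed the filter that left 13520 tested genes. Corrected for gene length, STEAP1 and STEAP2 led the family in every arm. STEAP1 averaged 105 CPM per kilobase of exon under enzalutamide, 103 under ARN-509 and 73.6 under vehicle, and STEAP2 averaged 87.3, 114 and 71.4 in these arms. On merged exon lengths, the STEAP1 and STEAP2 levels within each arm differed by less than the SD between tumors. That SD ignores that both genes were measured in the same tumors. Within tumors, STEAP1 made up a median 52.2% of the summed family per kilobase under enzalutamide, 46.4% under ARN-509 and 46.5% under vehicle. STEAP2 made up 45.0%, 51.8% and 45.1%. Under enzalutamide the STEAP1 share ran from 48.6 to 60.8% and that of STEAP2 from 36.1 to 49.5%. This within-tumor difference was not tested. STEAP3 stood far below STEAP1 and STEAP2, at 3.42 CPM per kilobase under enzalutamide, 2.98 under ARN-509 and 4.08 under vehicle. STEAP4 averaged 0.304, 0.411 and 5.63 CPM per kilobase, so it was the lowest member in both drug arms and near STEAP3 in vehicle tumors. The median share of STEAP4 in the summed family, per kilobase, was 0.120% under enzalutamide, 0.124% under ARN-509 and 4.61% under vehicle. The order rests on merged exon lengths, while annotated transcripts range from 1372 to 7033 bases for STEAP2, from 1871 to 4262 for STEAP3 and from 2321 to 9988 for STEAP4. A shorter transcript in use would place its gene higher per kilobase. It could set STEAP2 above STEAP1 under enzalutamide and vehicle too, where STEAP2 averaged lower, and not only under ARN-509. Which transcripts the tumors used is not given by counts per gene.

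**Figure D1:**
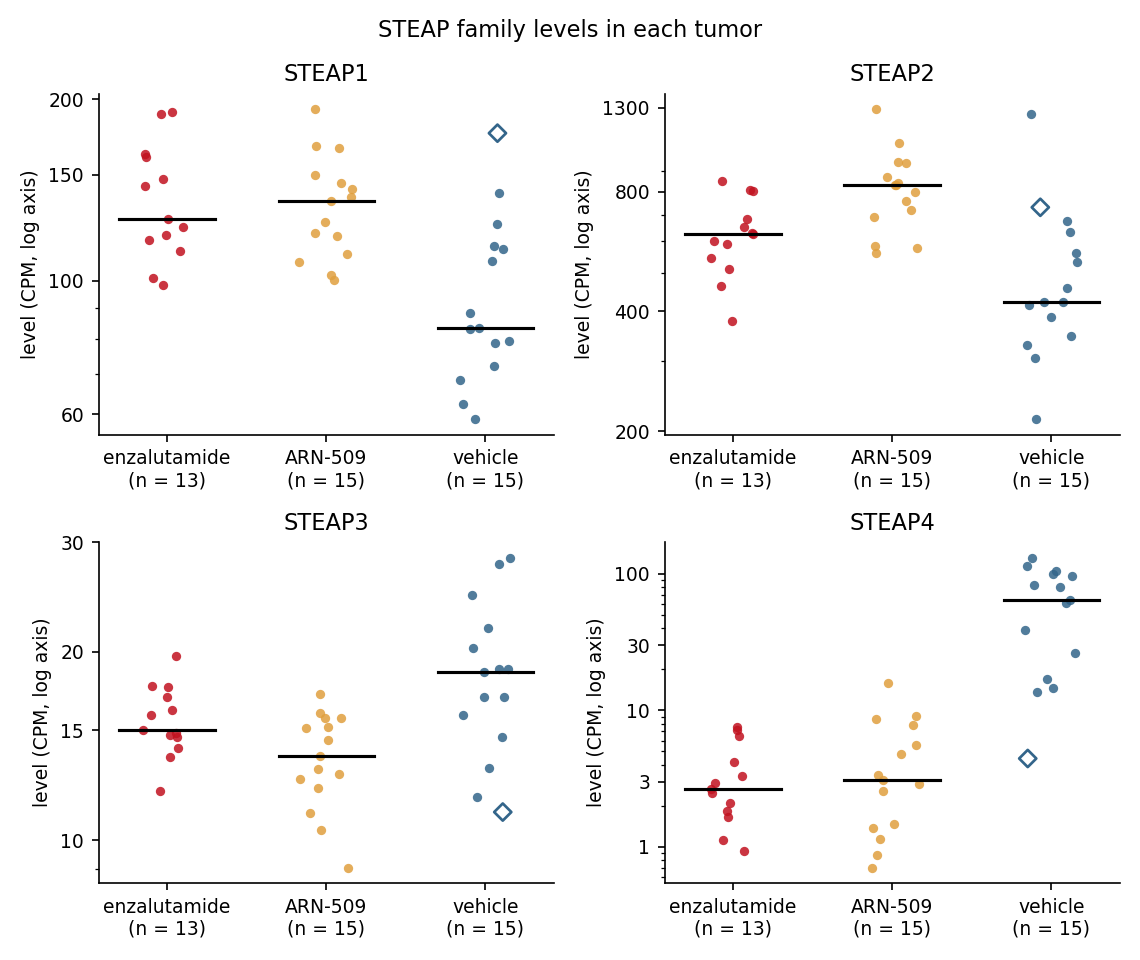
Level of each STEAP gene in every tumor, in CPM on a log axis, for the enzalutamide, ARN-509 and vehicle arms; black lines are medians and the open diamond is vehicle 11. STEAP4 sits between 0.703 and 16.0 CPM in the drug-treated tumors and between 4.43 and 132 CPM in vehicle tumors, while the other 3 genes shift less.

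STEAP4 fell most of the family, under both drugs. Its level in enzalutamide tumors ran from 0.932 to 7.56 CPM with a median of 2.63, in ARN-509 tumors from 0.703 to 16.0 CPM with a median of 3.11, and in vehicle tumors from 4.43 to 132 CPM with a median of 64.3. These rest on 6 to 118 counts per enzalutamide library, 3 to 148 per ARN-509 library and 20 to 1524 per vehicle library. Of the 15 vehicle tumors, 14 lay above every enzalutamide tumor, the exception being vehicle 11, and 12 lay above every ARN-509 tumor. In edgeR's quasi-likelihood test, with p-values adjusted by Benjamini-Hochberg over all 13520 genes and a threshold of 0.05, STEAP4 changed by a log2 fold change of -4.23 ± 0.44 under enzalutamide (SE, adjusted p = 3.04e-09). That is 18.8-fold lower than vehicle, and only 1 tested gene fell further. Under ARN-509 the log2 fold change was -3.74 ± 0.40 (SE, adjusted p = 4.36e-09), or 13.4-fold lower, and again 1 gene fell further. STEAP4 also varied most between tumors of an arm, with a coefficient of variation of 66.5% under enzalutamide, 91.3% under ARN-509 and 66.0% under vehicle.

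STEAP1, the prostate surface antigen, moved the other way. It ran from 98.3 to 191 CPM under enzalutamide (median 127), from 100 to 193 CPM under ARN-509 (median 136) and from 58.9 to 176 CPM under vehicle (median 83.5). Every drug-treated tumor lay above the vehicle median, and 9 of 15 vehicle tumors lay below the lowest tumor of either drug, though the arms overlapped. STEAP1 rose 1.42-fold under enzalutamide, a log2 fold change of 0.51 ± 0.13 (SE, edgeR adjusted p = 0.00608). It rose 1.40-fold under ARN-509, by 0.48 ± 0.13 (adjusted p = 0.00352). STEAP1B, a near copy whose promoter window matches that of STEAP1 at 96.7% of 300 bases, has its own row, with 30 counts in all 44 libraries together. Reads that align to both copies could have been dropped or split in the authors' counting.

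STEAP2, the most abundant member in counts, rose under ARN-509. It ran from 379 to 853 CPM under enzalutamide (median 626), from 561 to 1292 CPM under ARN-509 (median 834) and from 214 to 1255 CPM under vehicle (median 422). All 15 ARN-509 tumors and 12 of 13 enzalutamide tumors lay above the vehicle median. Vehicle tumors spread widest, with 4 below the lowest enzalutamide tumor and 10 below the lowest ARN-509 tumor, and vehicle 10 near the top of the ARN-509 arm at 1255 CPM. The log2 fold change was 0.68 ± 0.16 under ARN-509 (SE, edgeR adjusted p = 0.00135). Under enzalutamide it was 0.29 ± 0.16, with a 95% interval of -0.04 to 0.62 (adjusted p = 0.281). Without vehicle 8 and vehicle 10 the enzalutamide value passed, at 0.39 (adjusted p = 0.0461), as it did without vehicle 10 alone at 0.45 (adjusted p = 0.0301) and by limma voom with quality weights at 0.42 (adjusted p = 0.0171).

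STEAP3, the endosomal ferrireductase, fell under ARN-509. It ran from 12.001 to 19.7 CPM under enzalutamide (median 15.0), from 9.03 to 17.1 CPM under ARN-509 (median 13.6) and from 11.1 to 28.3 CPM under vehicle (median 18.6). All 15 ARN-509 tumors and 12 of 13 enzalutamide tumors lay below the vehicle median. The overlap was broad, with 8 vehicle tumors above the highest ARN-509 tumor and 5 above the highest enzalutamide tumor. The log2 fold change was -0.43 ± 0.11 under ARN-509 (SE, edgeR adjusted p = 0.00222), or 1.35-fold lower. Under enzalutamide it was -0.25 ± 0.11, with a 95% interval of -0.48 to -0.03 that leaves out 0 only before adjustment (adjusted p = 0.142).

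In all, 2 of 4 members passed under enzalutamide, where 10.8% of all tested genes did, with STEAP1 higher (5.10% of all genes) and STEAP4 lower (5.67%). Under ARN-509 4 of 4 passed, where 30.8% of all genes did, with 2 higher (14.7% of all genes) and 2 lower (16.1%). The drug comparisons share the vehicle tumors, so their values are not independent. The median absolute log2 fold change over all tested genes was 0.11 under enzalutamide and 0.17 under ARN-509. Of all calls under enzalutamide 689 were higher and 766 lower, and under ARN-509 1988 were higher and 2178 lower. With library totals in place of TMM scaling those became 838 and 600 under enzalutamide and 2713 and 1466 under ARN-509. Each member kept its direction in both drug comparisons with that scaling. Without vehicle 8 and vehicle 10 the log2 fold changes under enzalutamide and ARN-509 were 0.57 and 0.55 for STEAP1, -0.29 and -0.46 for STEAP3, and -4.34 and -3.85 for STEAP4, and only the enzalutamide value of STEAP3 among these did not pass.

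**Figure D2:**
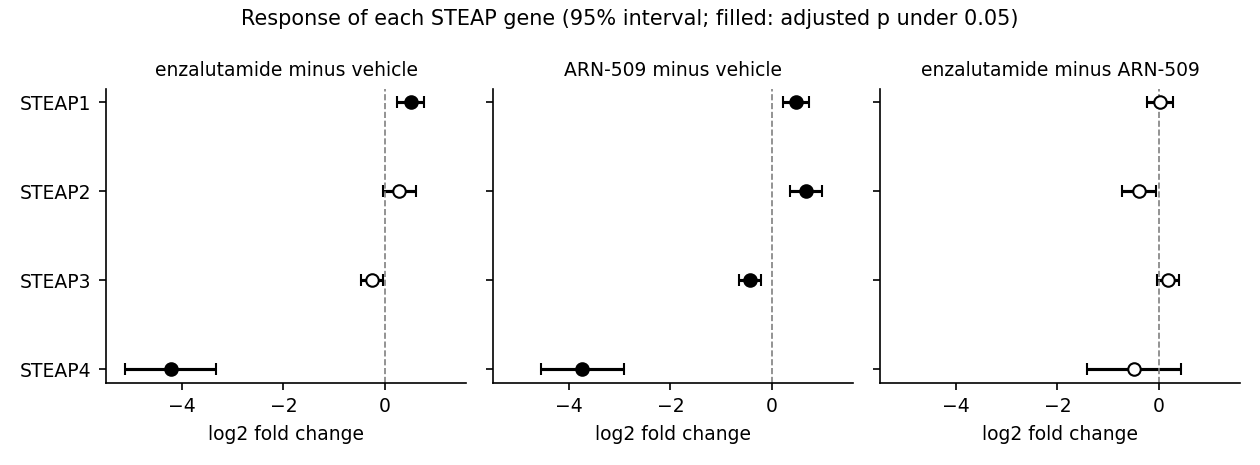
Log2 fold change of each STEAP gene with its 95% interval for each drug against vehicle and for enzalutamide against ARN-509; filled points passed an adjusted p of 0.05. STEAP4 stands at -4.23 and -3.74 against vehicle, and no point is filled between the drugs.

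Enzalutamide and ARN-509 are close analogs: ARN-509 has a pyridine ring and a spiro-cyclobutane where enzalutamide has a benzene ring and a pair of methyl groups. Dose and time matched, so the arms were compared directly, in 4 member comparisons. By edgeR's test 0 of 4 members passed between the drugs, where 26.8% of all tested genes did (14.6% lower and 12.2% higher under enzalutamide). By DESeq2 there were also 0, by limma voom with quality weights 1, and at an unadjusted p under 0.05 in edgeR 1, and where 1 passed it was STEAP2. The log2 difference, enzalutamide minus ARN-509, was 0.03 for STEAP1 (95% interval -0.23 to 0.29, adjusted p = 0.889). For STEAP3 it was 0.18 (-0.04 to 0.40, adjusted p = 0.213). For STEAP4 it was -0.49 (-1.42 to 0.44, adjusted p = 0.441), an interval wide enough to hold a fold difference of either sign. For STEAP2 it was -0.39 (-0.72 to -0.06), which missed the threshold after adjustment (adjusted p = 0.0694). The STEAP2 difference passed without vehicle 8 and vehicle 10 (adjusted p = 0.0177), without vehicle 10 alone (adjusted p = 0.0312), with only the arms compared (adjusted p = 0.0112) and by voom (adjusted p = 0.0111). After removal of GC and length trends per library it shrank to -0.13 (adjusted p = 0.604), and STEAP2 transcripts are the most AT-rich of the family, at 36.9% GC in the longest transcript against 56.9% for STEAP3. The part of GC content in this difference was not tested further.

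The members' responses were then set against each other inside each tumor, as the log2 ratio of the CPM of 1 member to another, for 6 pairs and 3 comparisons. Arm means were compared by a two-sided permutation test with 100000 resamples, adjusted over the 18. The ratio of STEAP4 to STEAP1 averaged -5.47 ± 0.76 under enzalutamide, -5.27 ± 1.26 under ARN-509 and -1.03 ± 1.83 under vehicle (SD). The difference from vehicle was -4.44 ± 0.52 under enzalutamide and -4.24 ± 0.57 under ARN-509 (SE). The ratios of STEAP4 to STEAP2 and to STEAP3 were lower too, with differences of -4.28 and -3.69 under enzalutamide and of -4.50 and -3.31 under ARN-509. These 6 differences all had adjusted p = 3.0e-05, from the smallest p that the permutations can give. STEAP4 thus responded differently from each other member in the same tumors.

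STEAP3 also parted from STEAP1. The ratio of STEAP3 to STEAP1 differed from vehicle by -0.76 ± 0.23 under enzalutamide (SE, permutation test, adjusted p = 0.00699) and by -0.94 ± 0.21 under ARN-509 (adjusted p = 0.00028). With the shallow enzalutamide 4 included, which held 0 STEAP1 counts, the enzalutamide value was -0.044 and did not pass (adjusted p = 0.9997). The ratio of STEAP3 to STEAP2 differed by -0.60 ± 0.26 under enzalutamide, which missed the threshold (adjusted p = 0.0597), and by -1.19 ± 0.25 under ARN-509 (adjusted p = 0.00028). The enzalutamide value passed when any 1 of vehicle 2, 10, 11 or 14 or enzalutamide 9 was left out. STEAP1 and STEAP2 were not shown to respond differently to either drug. Their ratio, STEAP2 to STEAP1, differed from vehicle by -0.16 ± 0.14 under enzalutamide (adjusted p = 0.356) and by 0.25 ± 0.15 under ARN-509 (adjusted p = 0.127). The enzalutamide value passed without vehicle 8, at -0.26 (adjusted p = 0.0341), and the ARN-509 value without vehicle 10, at 0.31 (adjusted p = 0.0323).

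Between the drugs, 2 of the 6 ratios differed in the 43 libraries. The log2 ratio of STEAP2 to STEAP1 averaged 2.18 ± 0.22 under enzalutamide, 2.59 ± 0.28 under ARN-509 and 2.34 ± 0.49 under vehicle (SD). Enzalutamide minus ARN-509 was -0.41 ± 0.09 (SE, permutation test, adjusted p = 0.00028). The ratio of STEAP3 to STEAP2 was higher under enzalutamide than under ARN-509 by 0.59 ± 0.16 (adjusted p = 0.00148). After removal of GC and length trends, an alternative chosen after the data were seen, the first became -0.16 ± 0.07 (adjusted p = 0.0445) and the second 0.26 ± 0.14, which no longer passed (adjusted p = 0.102). With the shallow enzalutamide 4 included, which held 0 STEAP1 counts, the difference in the ratio of STEAP2 to STEAP1 turned to 0.19 (adjusted p = 0.9997). The other 4 ratios had adjusted p-values from 0.194 to 0.625.

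**Figure D3:**
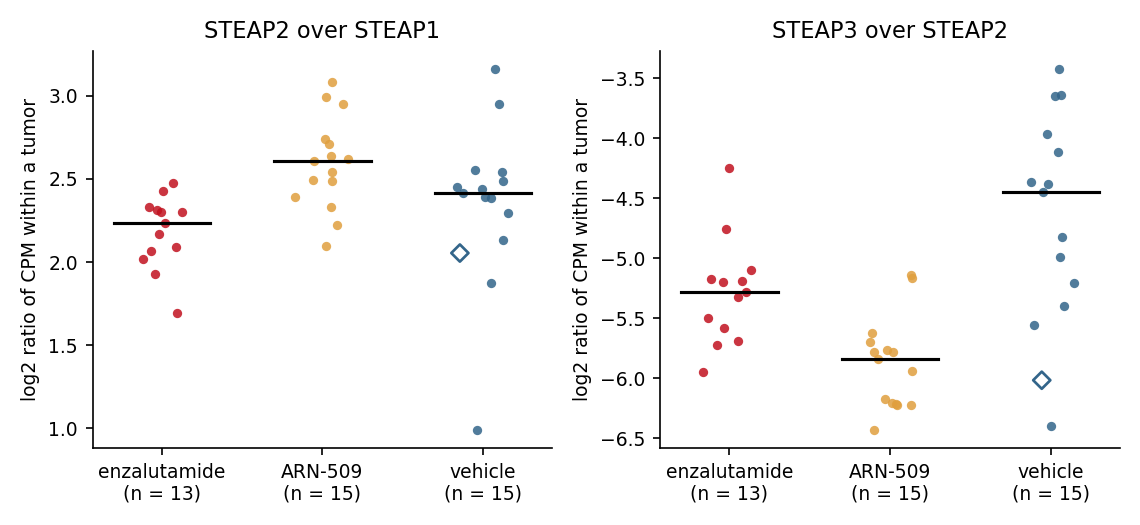
Within-tumor log2 ratios of STEAP2 to STEAP1 and of STEAP3 to STEAP2 in every tumor, by arm, with a line at each median; the open diamond is vehicle 11. The STEAP2 to STEAP1 ratio averages 2.18 under enzalutamide and 2.59 under ARN-509, and vehicle tumors spread widest.

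Relations between members were then taken across the tumors of each arm. Of 18 relations between pairs, within 3 arms, the strongest was in vehicle tumors between STEAP1 and STEAP4, with Pearson r = -0.83 and Spearman rho = -0.88 (permutation tests, n = 15, adjusted p = 0.00252 and 0.0009). The r was -0.79 without the 2 tumors farthest from the median and -0.88 without vehicle 8 and vehicle 10. Vehicle 11 had both the highest STEAP1 of its arm, 176 CPM, and the lowest STEAP4, 4.43 CPM, and also the lowest STEAP3, 11.1 CPM. Vehicle 1 stood at the other end, with 68.5 CPM of STEAP1 and 132 CPM of STEAP4. Under enzalutamide the same pair had r = 0.57 and rho = 0.55 (permutation tests, n = 13, adjusted p = 0.0841 and 0.141), and under ARN-509 r = 0.0880 (permutation test, n = 15, adjusted p = 0.754). Whether the relation differs between arms was not tested.

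**Figure D4:**
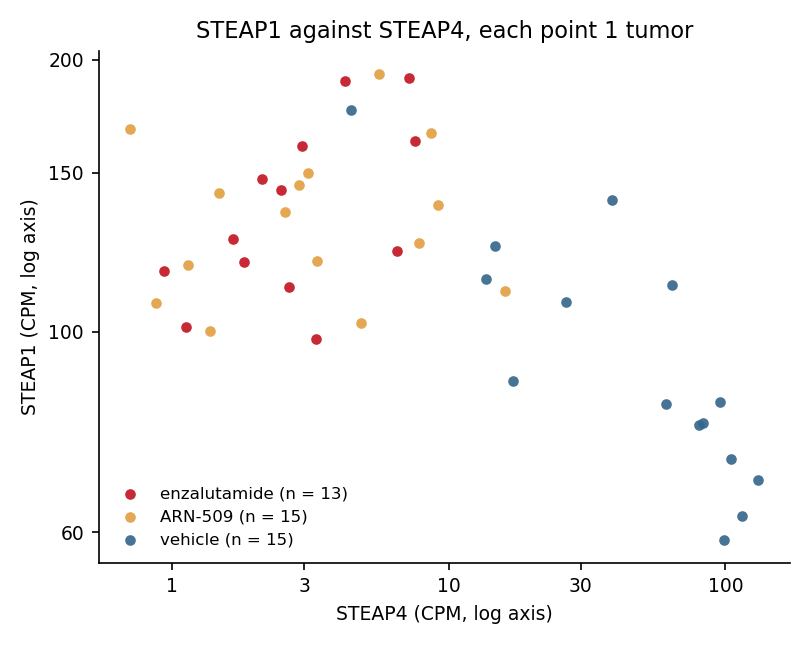
STEAP1 against STEAP4 in every tumor, both in CPM on log axes, by arm. Vehicle tumors run from high STEAP4 and low STEAP1 (132 and 68.5 CPM in vehicle 1) to low STEAP4 and high STEAP1 (4.43 and 176 CPM in vehicle 11), while drug-treated tumors gather at low STEAP4.

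STEAP1 and STEAP2, which lie side by side on chromosome 7, varied together under enzalutamide, with r = 0.78 and rho = 0.84 (permutation tests, n = 13, adjusted p = 0.0125 and 0.00567), and r was 0.64 without the 2 farthest tumors. In vehicle tumors they had r = 0.61 and rho = 0.64 (permutation tests, n = 15, adjusted p = 0.0519 and 0.0471), and r was 0.35 without vehicle 10 and vehicle 11 but 0.81 without vehicle 8 and vehicle 10, so its size depended on which tumors entered. Under ARN-509 r was 0.60 and rho 0.47 (permutation tests, n = 15, adjusted p = 0.0542 and 0.165). After removal of GC and length trends, r of STEAP1 and STEAP2 was 0.93 under enzalutamide, 0.78 under ARN-509 and 0.86 under vehicle. No test was run on the values after that removal. STEAP2 and STEAP4 varied together under enzalutamide, with r = 0.77 and rho = 0.74 (permutation tests, n = 13, adjusted p = 0.0125 and 0.0292), and r was 0.70 without the 2 farthest tumors. STEAP1 and STEAP3 ran in opposite directions in vehicle tumors, with r = -0.64 and rho = -0.59 (permutation tests, n = 15, adjusted p = 0.0433 and 0.0649), and r was -0.46 without the 2 farthest tumors. STEAP2 and STEAP3 did so too by rank, with r = -0.53 and rho = -0.63 (permutation tests, n = 15, adjusted p = 0.0841 and 0.0471). The remaining relations had adjusted p over 0.05 by both measures. Among these, STEAP2 and STEAP4 in vehicle tumors had r = -0.32, and -0.66 after removal of GC and length trends. The same removal gave r = 0.74 for STEAP2 and STEAP4 under enzalutamide. In vehicle tumors it gave -0.82 for STEAP1 and STEAP4, -0.67 for STEAP1 and STEAP3 and -0.55 for STEAP2 and STEAP3.

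The genes most like each member were taken from all tested genes by Pearson r of the deviations from the arm mean over 43 tumors, which share their library, and are given as a description. STEAP1 was most like SNX22, a sorting nexin, at r = 0.82, with 0.85 under enzalutamide, 0.85 under ARN-509 and 0.82 under vehicle. SDC1, the proteoglycan syndecan-1, followed at 0.80, but with only 0.27 in the ARN-509 arm. STEAP2 was most like PTPRJ, a receptor tyrosine phosphatase, at 0.90, followed by C11orf92 at 0.89 and the kinase gene DAPK1 at 0.88. STEAP3 was most like TG, thyroglobulin, at 0.76, though TG was near the filter at a median of 1.35 CPM. SEC14L2 at 0.73, but with only 0.097 in the enzalutamide arm, and PHF19 at 0.72 came next. STEAP4 was most like HLA-DMB, a chaperone of MHC class II loading, at 0.79, C4orf19 at 0.77 and the homeobox gene CUX2 at 0.72. The 3 genes like STEAP4 fell with it: the log2 fold changes under enzalutamide and ARN-509 were -1.62 and -1.87 for HLA-DMB, -1.90 and -1.80 for C4orf19, and -1.13 and -1.31 for CUX2 (edgeR adjusted p at most 9.71e-07). SNX22 rose with STEAP1, by 0.82 and 0.71 (adjusted p = 0.000284 and 0.000666). C11orf92 rose too, by 0.56 and 0.68 (edgeR adjusted p = 0.023 and 0.00177). The 3 genes like STEAP3 fell under enzalutamide and ARN-509, while STEAP3 itself passed only under ARN-509. Their log2 fold changes were -1.09 and -1.16 for TG, -1.04 and -1.03 for SEC14L2, and -0.25 and -0.45 for PHF19 (edgeR adjusted p at most 0.0455). Likeness within arms did not go with a shared response in every case: under enzalutamide and ARN-509, PTPRJ had -0.02 and 0.16 (adjusted p = 0.921 and 0.154) and DAPK1 0.23 and 0.39 (adjusted p = 0.478 and 0.0852). SDC1 rose under enzalutamide by 1.20 (adjusted p = 0.00282) and had 0.28 under ARN-509 (adjusted p = 0.433), and TSKU, a secreted proteoglycan, had 0.38 and 0.09 (adjusted p = 0.158 and 0.689). The members' deviations had an r of 0.0497 to 0.113 with the depth of the library.

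Genes near the members were looked at next. STEAP4 lies between SRI, which encodes the calcium-binding protein sorcin, and ZNF804B, at some distance from STEAP1 and STEAP2 on the same chromosome, by the order in RefSeq. SRI had a log2 fold change of 0.01 under enzalutamide and -0.06 under ARN-509 (adjusted p = 0.507 under ARN-509). Of the 15 nearest genes with a row, 9 were tested, and 0 rose and 1 fell under enzalutamide while 3 rose and 1 fell under ARN-509, where 10.8% and 30.8% of all tested genes passed in either direction. C7orf63, next to STEAP2, rose under ARN-509 by 0.48 ± 0.14 (SE, adjusted p = 0.0073) and had 0.27 ± 0.14 under enzalutamide (adjusted p = 0.223). DBI, near STEAP3, which encodes the acyl-CoA-binding protein, fell, with -0.73 ± 0.14 under enzalutamide (adjusted p = 0.000179) and -0.99 ± 0.13 under ARN-509 (adjusted p = 3.35e-07).

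Other genes of iron, copper and electron transfer were counted from lists, and each count is to be read against the 10.8% of all tested genes that passed under enzalutamide and the 30.8% under ARN-509. With so few genes a list, the counts for oxidoreductases, iron transport, iron storage, copper and cofactors were near or below those shares and are no result about the lists. Among other membrane oxidoreductases, 2 of 14 tested rose and 0 fell under enzalutamide, and 3 rose and 2 fell under ARN-509, with a median log2 fold change of 0.14 and 0.12, against -0.0040 and -0.0011 for all tested genes. CYBASC3, a lysosomal cytochrome b561 known as a ferrireductase, averaged 292 ± 60.0 CPM under enzalutamide, 243 ± 40.6 CPM under ARN-509 and 114 ± 41.4 CPM under vehicle (SD). It rose by 1.36 ± 0.13 (SE, adjusted p = 3.89e-10) and by 1.10 ± 0.13 (adjusted p = 1.87e-08) on the log2 scale under enzalutamide and ARN-509, opposite in direction to STEAP4. CYBRD1, the duodenal ferrireductase, was low and rose under ARN-509 by 0.60 (adjusted p = 0.0398). Of 12 tested genes of iron transport 1 rose and 0 fell under enzalutamide, and 3 rose and 0 fell under ARN-509, with medians of 0.05 and 0.08. SLC22A17, a receptor for the siderophore-binding protein lipocalin 2, was the one that rose under enzalutamide, by 0.39 (adjusted p = 0.00201).

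Of 14 tested genes of iron storage and sensing, 0 passed under enzalutamide by edgeR, with 1 at an unadjusted p under 0.05, 0 by DESeq2 and 0 by voom. Under ARN-509 1 rose and 3 fell. Those that fell were the ferritin heavy chain FTH1 (log2 -0.31, adjusted p = 0.025), the iron chaperone PCBP1 (-0.25, adjusted p = 0.00535) and the heme oxygenase HMOX2 (-0.28, adjusted p = 0.0103), while the iron regulatory gene IREB2 rose by 0.30 (adjusted p = 0.0084). Of 14 tested genes of copper handling 0 rose and 1 fell under enzalutamide, and 0 rose and 3 fell under ARN-509. ATP7B, a copper-exporting pump, fell in both comparisons, with -0.47 under enzalutamide (adjusted p = 0.00157) and -0.35 under ARN-509 (adjusted p = 0.00813). Of 10 tested genes of FAD and heme supply 0 rose and 1 fell under enzalutamide, and 0 rose and 2 fell under ARN-509. RFK, the riboflavin kinase on the way to FAD, was the one that fell under enzalutamide (-0.37, adjusted p = 0.00379), and it had -0.0052 under ARN-509 (adjusted p = 0.968). The list of 14 androgen-induced prostate genes, all tested, had 1 higher and 6 lower under enzalutamide and 1 higher and 8 lower under ARN-509, with medians of -0.25 and -0.36. TRPM8 (-2.54 and -2.03), HOMER2 (-0.40 and -0.52) and PMEPA1 (-0.68 and -0.76) fell under enzalutamide and ARN-509.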

How the data were processed

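RNA of 44 VCaP xenograft tumors was sequenced from libraries made with the TruSeq RNA v2 kit, per the labels' protocols, which does not mark strand. The authors deposited raw counts per gene for 23368 gene symbols, and 0 columns were unmatched to a tumor. The submitters' processing notes name the build hg19 and the tools HTSeq 0.6.1, Picard 1.77, TopHat2 2.1.0 and bcl2fastq 1.8.4. How strand and mouse reads were handled, the annotation and all parameters were not stated in the sources used here, so mouse reads and copies or antisense genes could enter the counts. STEAP1, STEAP2, STEAP3 and STEAP4, the lists and the tests were chosen with earlier results of these data known.

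Enzalutamide 4 was left out of the main fit. The remaining 43 libraries, of 3377450 to 30125004 counts, were scaled by TMM after filterByExpr by arm (13520 genes kept) and tested with a robust edgeR 4.0.16 quasi-likelihood model in R 4.3.3, with arm as the only term, and p-values were adjusted by Benjamini-Hochberg over all genes at a threshold of 0.05. The SE is the absolute log2 fold change over the square root of F. No 2 libraries of an arm agreed within sampling noise, chi-square per degree of freedom being at least 3.27. P-values of arm comparisons set the difference between arms against the spread between these tumors. Levels are CPM of the TMM-scaled totals, and log2 CPM for ratios and relations used a prior count of 2. Exon lengths, GC content and transcript length came from GENCODE v29 on GRCh38, matched by symbol (12034 of the tested genes, 89.0%), and promoters and gene order from RefSeq, with no coordinates mixed with hg19. Genes named were the 4 members, rows that could share their reads, the 3 nearest genes on either side, the 3 tested genes most like each member and up to 4 per list by smallest p, of which 1 is not reported here. The test was checked on simulated data with known changes.

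Alternatives were DESeq2 size factors, library totals, no filter or at least 1 CPM in 13 libraries, all 44 libraries, only the arms compared, vehicle 8 and 10 left out, a replicate block, GC and length trend removed, limma 3.58.1 voom with quality weights, DESeq2 1.42.0, other prior counts of 0.25 and 5 for ratios, and each library left out in turn.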

Additional observations from a re-analysis of the deposited data

Results flagged for a closer look

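Among the family, 2 results differed between the drugs by a test of the difference itself. The within-tumor log2 ratio of STEAP2 to STEAP1 was lower under enzalutamide than under ARN-509, with a difference of -0.41 (permutation test, adjusted p = 0.00028), with arm means of 2.18 under enzalutamide and 2.59 under ARN-509. The ratio of STEAP3 to STEAP2 was higher under enzalutamide than under ARN-509 by 0.59 (permutation test, adjusted p = 0.00148), with arm means of -5.29 under enzalutamide and -5.88 under ARN-509. Both share STEAP2, the member with the lowest GC content of its longest transcript (36.9%), and both were smaller once GC and length trends had been removed, at -0.16 and 0.26, where the second no longer passed (adjusted p = 0.102). With enzalutamide 4 included, which held 0 STEAP1 counts, the difference in the ratio of STEAP2 to STEAP1 turned to 0.19 (adjusted p = 0.9997). The part of GC content in them was not tested further.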

How the results depend on the processing

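Of 132 values of single members under the alternatives other than leaving out single libraries, 125 kept their direction and side of the threshold and 6 newly passed, and of 108 values of ratios 99 kept both. Direction turned, without a call in either case, for STEAP1 between the drugs with library totals (-0.0098), for STEAP2 to STEAP1 under enzalutamide with all 44 libraries (0.44), and for STEAP4 to STEAP1 between the drugs with all 44 (0.68) and after GC and length trends were removed (0.059). STEAP2 under enzalutamide newly passed without vehicle 8 and 10 (0.39) and by voom (0.42), and STEAP2 between the drugs did with only the arms compared (-0.39), without vehicle 8 and 10 (-0.39), with the replicate block (-0.41) and by voom (-0.40). With all 44 libraries, enzalutamide 4 included, the ratio of STEAP2 to STEAP1 between the drugs reversed to 0.19 and that of STEAP3 to STEAP1 under enzalutamide came to -0.044, not past the threshold. That of STEAP3 to STEAP1 under enzalutamide was -0.68 with the replicate block, also not past it. The ratio of STEAP3 to STEAP2 under enzalutamide newly passed without vehicle 8 and 10 (-0.65) and after GC and length trends were removed (-0.69), and between the drugs it lost its call there (0.26). Genes called moved to 1128 with the trend removed and 5707 by voom between the drugs, against 3623, and to 2547 by voom under enzalutamide, against 1455. Leaving out each library in turn, STEAP2 ranged from 0.23 to 0.45 under enzalutamide and from -0.44 to -0.33 between the drugs, the ratio of STEAP3 to STEAP2 under enzalutamide from -0.72 to -0.50, and that of STEAP2 to STEAP1 from -0.26 to -0.10 under enzalutamide and from 0.16 to 0.31 under ARN-509. Enzalutamide 4 held 0 STEAP1 counts, so in that library ratios to STEAP1 rest on the prior count. The cause of these changes was not tested. Replicate numbers were not taken to pair the tumors in the main fit. Same-numbered deviations had r from -0.468 to 0.734 between enzalutamide and vehicle, with 3 of 13 over 0.1, against 6 of 15 between ARN-509 and vehicle and 6 of 13 between the drugs. The labels do not say what the numbers mean, and such correlations cannot settle whether same-numbered tumors belong together. With the block STEAP4 stood at -4.11 and -3.64. The depth limits STEAP4 in drug-treated tumors, where libraries held as few as 3 counts.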

Other observations

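The library of enzalutamide 4 held 80142 counts in all. Of these, 13 were STEAP2, 1 STEAP3, 1 STEAP4 and 0 STEAP1, and a count of 0 allows up to 37.4 CPM there, counting error only. Its log2 expression had a Pearson r of 0.416 with its arm mean. STEAP1B had 0 counts in 27 of 44 libraries and at most 4 in any.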
